A study of Homo sapiens with 16 samples.

Results

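Resting promoter nucleosomes were described in untreated GM12878 cells by setting light against heavy digestion with micrococcal nuclease (MNase). The promoters were those with a complete line in both the light and the heavy table of untreated cells, 16260 of the 21857 in the series, or 74.4%. The heavy table breaks off in a partial line, and its complete lines match the first 16260 of the light table in order. Promoters listed after that point are therefore missing by their place, and no measured value was used in the choice. They carried 16193 gene symbols on 23 chromosomes, and 80.6% of their transcription start sites (TSSs) lay within 50 bp of an annotated start on the same strand.

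GM12878 is a human B-lymphoblastoid line, B cells made to grow without limit by Epstein-Barr virus. In the light digest, untreated and formaldehyde-crosslinked nuclei were cut with 20 U of MNase, and in the heavy digest with 200 U, and no stimulus was given in either. The wider series also stimulated the same line with heat-killed Salmonella typhimurium (HKST) for 20, 40 or 60 min. Fragments of 140 to 200 bp were captured over 2 kb around each TSS and sequenced, and each table pools 2 replicates of 1 digest. There is therefore 1 light and 1 heavy value per promoter and position, no spread between replicates can be given, and no difference between the digests was tested.

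MNase cuts the linker DNA between nucleosomes first and trims or destroys loosely held nucleosomes as digestion goes on. A nucleosome recovered mainly in a light digest is called MNase-sensitive, and one that persists in a heavy digest MNase-resistant. At active promoters the nucleosomes just upstream (-1) and just downstream (+1) of the TSS flank a nucleosome-free region (NFR), where the transcription machinery and regulatory factors bind. MNase also cuts A/T-rich DNA faster than G/C-rich DNA.

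Sensitivity is given as the log2 ratio of light to heavy reads scaled to equal depth (rpm), so that positive values mark MNase-sensitive and negative values MNase-resistant DNA. For single promoters 0.118 rpm, 0.1 of the mean value, was added to each digest, which understates the ratio where few fragments were found. The depth behind the rpm scale, recovered from the smallest step between values, was 9719870 fragments for light and 5117310 for heavy. It is the total used for scaling, not the number of fragments in the table. The light table gave 341 fragments per promoter on average. A single window held far fewer, a median of 19 light and 9 heavy fragments at -1. At those numbers the exact 95% interval of the log2 ratio ran from -1.06 to 1.48, so most single windows cannot be called apart from 0. These intervals cover counting error only and no variation between libraries. Amplified reads without molecular identifiers are not independent molecules, so the intervals may be too narrow even for counting error.

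The sequences that best show the range of the data are those under the -1 nucleosome at both ends of its ranking. The 4 promoters with the highest sensitivity at -1, among those with at least 30 fragments there, were FAM120AOS at chr9:96216011-96216157 (- strand), SAMD9 at chr7:92747473-92747619 (- strand), NDUFA2 at chr5:140027507-140027653 (- strand) and U2SURP at chr3:142720089-142720235 (+ strand). All coordinates are of hg19, and the sequences run 5′ to 3′ on the strand of the gene, centered 210 bp upstream of the TSS. Capitals mark CG dinucleotides, and the sequence of NDUFA2 holds a long run of alternating a and c, a simple repeat.
FAM120AOS: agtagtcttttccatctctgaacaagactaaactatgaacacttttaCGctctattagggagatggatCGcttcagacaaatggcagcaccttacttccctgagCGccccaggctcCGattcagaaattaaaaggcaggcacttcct
SAMD9: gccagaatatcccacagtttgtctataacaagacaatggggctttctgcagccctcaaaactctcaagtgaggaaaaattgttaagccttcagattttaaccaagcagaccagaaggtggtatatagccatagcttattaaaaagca
NDUFA2: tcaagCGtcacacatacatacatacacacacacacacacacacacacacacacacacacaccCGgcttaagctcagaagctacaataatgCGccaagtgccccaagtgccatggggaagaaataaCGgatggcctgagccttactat
U2SURP: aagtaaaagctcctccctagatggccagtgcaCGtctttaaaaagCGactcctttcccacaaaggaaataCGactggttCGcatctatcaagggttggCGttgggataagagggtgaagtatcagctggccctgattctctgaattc

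Among the most resistant -1 nucleosomes were those of ZFR2 at chr19:3869164-3869310 (- strand), FAM184B at chr4:17783272-17783418 (- strand) and SRPRB at chr3:133502594-133502740 (+ strand). The 4 sensitive sequences were 40.1% to 49% G and C with 0 to 5 CG dinucleotides, and the 3 resistant ones 65.3% to 70.1% with 9 to 12.
ZFR2: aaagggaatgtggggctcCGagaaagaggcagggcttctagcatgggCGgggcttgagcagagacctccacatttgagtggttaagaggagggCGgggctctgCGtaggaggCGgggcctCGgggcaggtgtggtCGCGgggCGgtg
FAM184B: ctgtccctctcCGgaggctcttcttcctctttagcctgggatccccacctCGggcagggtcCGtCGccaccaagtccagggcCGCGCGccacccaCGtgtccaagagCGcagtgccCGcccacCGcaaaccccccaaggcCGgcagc
SRPRB: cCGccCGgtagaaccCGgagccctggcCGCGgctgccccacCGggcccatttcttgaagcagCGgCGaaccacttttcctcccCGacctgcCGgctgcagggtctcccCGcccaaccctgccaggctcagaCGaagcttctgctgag

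In the NFR, taken from 130 to 30 bp upstream of the TSS, the sensitive sequences were again poorer in G and C. The most sensitive NFRs were those of MLH3 at chr14:75518265-75518365 (- strand) and TTC8 at chr14:89290788-89290888 (+ strand), with 36.6% and 43.6% G and C. The most resistant were those of C1QB at chr1:22979552-22979652 (+ strand) and ATP6AP2 at chrX:40440086-40440186 (+ strand), with 57.4% and 60.4%. Capitals again mark CG dinucleotides, whose number did not part the ends here: 3 each in MLH3 and TTC8, 1 in C1QB and 9 in ATP6AP2.
MLH3: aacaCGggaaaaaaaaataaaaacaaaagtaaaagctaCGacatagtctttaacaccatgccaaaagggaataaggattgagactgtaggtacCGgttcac
TTC8: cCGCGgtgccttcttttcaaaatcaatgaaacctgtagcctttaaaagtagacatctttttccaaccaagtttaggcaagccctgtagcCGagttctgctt
C1QB: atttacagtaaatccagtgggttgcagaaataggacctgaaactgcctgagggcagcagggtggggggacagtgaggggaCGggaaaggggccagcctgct
ATP6AP2: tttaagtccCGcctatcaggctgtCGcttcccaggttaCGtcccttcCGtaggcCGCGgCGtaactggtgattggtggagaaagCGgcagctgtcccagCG

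On average, DNA upstream of the TSS was sensitive and DNA downstream resistant. Summed over the digests, the average profile peaked 610, 400 and 210 bp upstream (-3, -2 and -1), fell to its lowest point at -80 bp, and peaked again at 150, 360 and 620 bp (+1, +2 and +3). The -1 peak stood at 1.22 rpm in the light digest and 1.11 rpm in the heavy digest, a log2 ratio of 0.13. The +1 peak stood at 1.12 rpm in light and 1.24 rpm in heavy, a log2 ratio of -0.14. The ratio turned negative at -110 bp, was negative at all 79 positions from -90 to 690 bp, and averaged 0.077 from -700 to -110 bp against -0.20 from 0 to 700 bp.

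The peaks themselves hardly moved with digestion. Light and heavy maxima coincided at -2 (-400 bp) and -1 (-210 bp). They lay 1 bin of 10 bp apart at -3 (-610 bp in light, -620 bp in heavy), at +1 (150 and 160 bp) and at +2 (360 and 370 bp), and 2 bins apart at +3 (630 and 610 bp). The most resistant stretch of the average was not a nucleosome center but the linker after +1, where the ratio reached -0.34 at 230 bp. At the lowest point of that linker, 260 bp, the digests held 0.722 rpm in light and 0.90 rpm in heavy. The +1 to +2 arrangement was accordingly sharper in light, with peaks 1.45 times the linker between them, against 1.33 times in heavy.

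**Figure D1:**
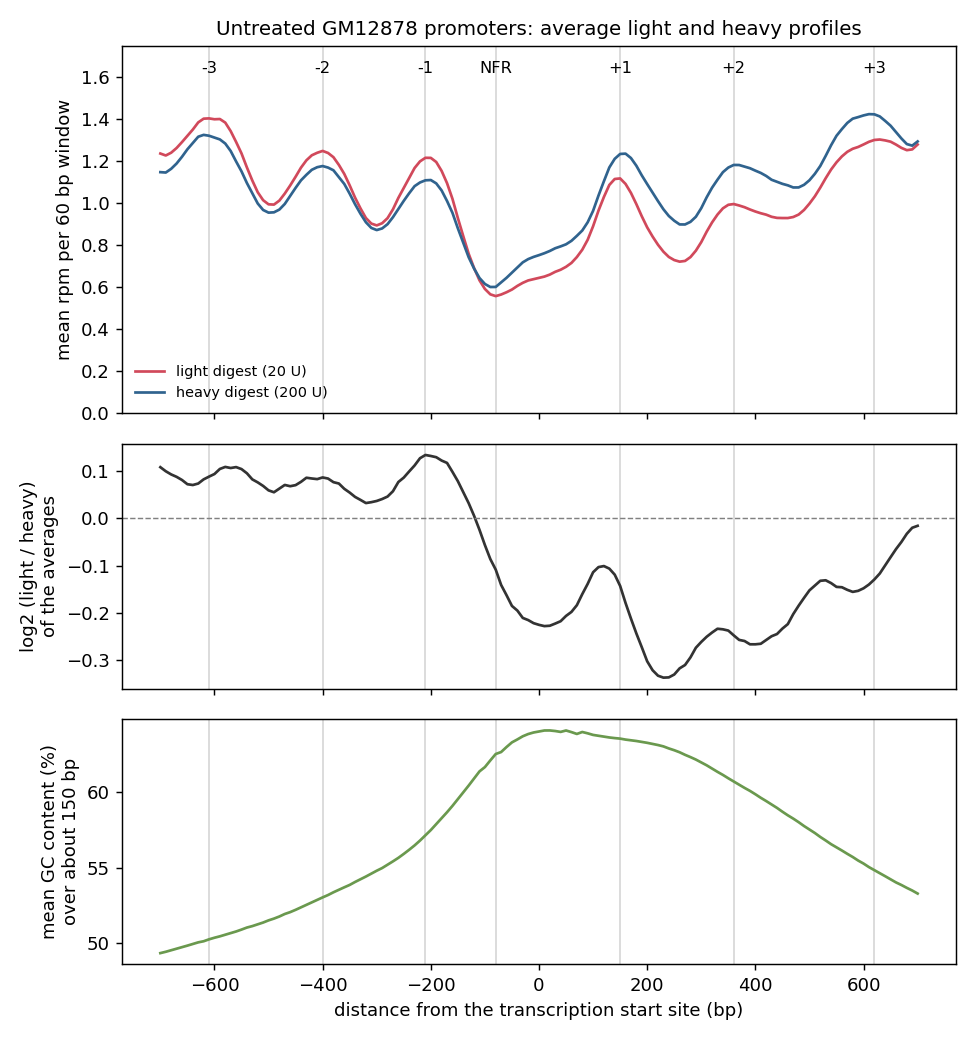
Average profiles over 16260 promoters of untreated cells against the distance from the TSS in bp. The top panel gives mean rpm per 60 bp window in the light and heavy digests, the middle panel the log2 ratio of the averages, and the bottom panel the mean GC content. Grey lines mark -3 to +3 and the NFR. Light lies above heavy upstream and below it from -90 to 690 bp, and GC content is highest around the TSS.

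Promoter by promoter, upstream again lay above downstream, with a wide spread. Of the peaks, -1 had the highest ratio of the averages, whereas -3 had the highest median over promoters. The median log2 ratio was 0.25 at -3, 0.18 at -2, 0.17 at -1, 0.08 in the NFR, -0.20 at +1, -0.23 at +2 and -0.02 at +3. The middle 50% of promoters ran from -0.43 to 0.77 at -1 and from -0.74 to 0.35 at +1, so the ranges overlapped broadly. Within a promoter, -1 was the more sensitive of the pair in 64.5% of the 13417 with values at both, by a median of 0.37. The NFR had no settled sign, because its average favored heavy (0.558 rpm in light, 0.602 rpm in heavy at -80 bp) while its median over promoters was positive.

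Shares past a 2-fold difference show the same tilt from upstream to downstream. At -3, 18.1% of promoters were over 2-fold higher in light and 6.62% over 2-fold lower. The shares were 16.5% and 8.37% at -2, 17.2% and 9.45% at -1, and 14.3% and 11.1% in the NFR. Downstream they turned round, with 7.59% over 2-fold higher in light and 16.3% lower at +1, 8.08% and 16.9% at +2, and 12.2% and 12.5% at +3. Over the whole 2 kb such differences were rare, 1.29% higher and 1.91% lower.

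Counting error alone puts up to 2.5% of promoters on each side, and the observed shares were above that. At -1, 13.4% were higher and 10.2% lower in light beyond counting error. In the NFR the shares were 4.23% and 8.16%, and at +1 they were 6.88% and 16.7%. With the fragments of the whole 2 kb, a median of 330 in light, 34.5% of promoters were sensitive and 28.5% resistant beyond counting error. These shares can hold repeated reads of the same molecule and variation between libraries as well, which pooled tables do not show.

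**Figure D2:**
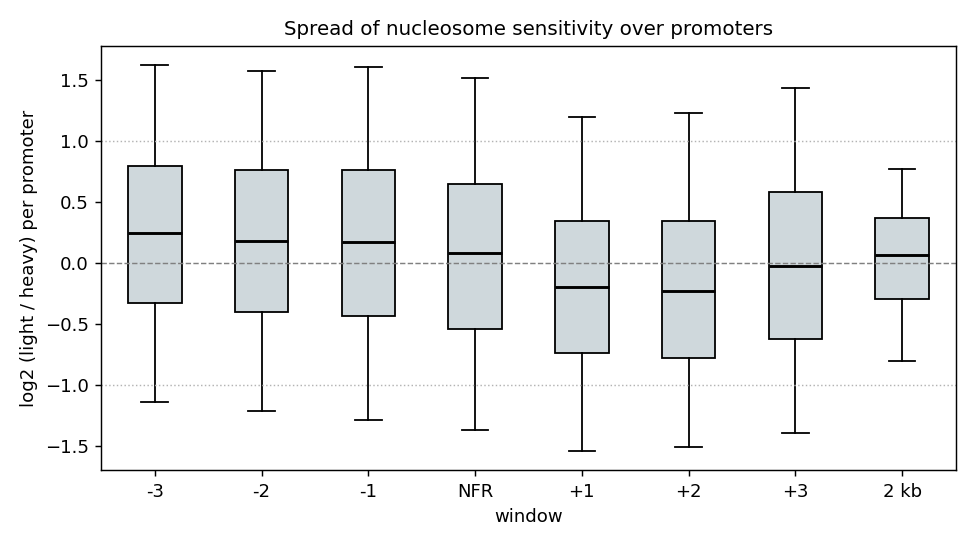
Log2 ratio of light to heavy per promoter in each window. Boxes give the median and quartiles and whiskers the 5th and 95th percentiles over promoters, with dotted lines at a 2-fold difference. Medians are above 0 from -3 to the NFR and below 0 from +1 to +3.

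By the sign of the log2 ratio alone, whatever its size, -1, NFR and +1 combined in every way. All were above 0 in 23.5% of promoters and none was in 21.6%. A -1 and NFR above 0 beside a +1 that was not made up 18.1%. Most single windows cannot be called apart from 0, so these shares do not give the state of single promoters. Neighboring windows were most alike, with a Spearman rho over promoters of 0.48 between -1 and the NFR, 0.36 between the NFR and +1, and 0.30 between -1 and +1. The windows of -1 and the NFR adjoin and share fragments, and all windows share the same libraries, so these values are descriptions only.

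Sensitivity went with the GC content of the DNA more closely than with the number of CG dinucleotides. Spearman's rho between the log2 ratio and the GC content of the same window was -0.50 at -1 (14765 promoters), -0.34 in the NFR, -0.42 at +1 and -0.67 at +3, over promoters that share the same libraries. With the number of CG dinucleotides from 250 bp upstream to 49 bp downstream it was -0.20 at -1, -0.13 in the NFR, -0.18 at +1 and -0.18 at +3. With the GC content of that same stretch it was -0.41 at -1, -0.34 in the NFR, -0.31 at +1 and -0.28 at +3. The gap between the measures was therefore smaller over the same DNA, most of all at +3. At -1, promoters with 35% to 40% GC had a median of 0.84 and 42.7% of them were over 2-fold higher in light. Those with 70% to 75% had a median of -0.44, with 23.9% over 2-fold lower. In the richest bin, 75% and above, the median was -0.27.

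Average GC content also differed between the windows, with a median of 57.1% at -1, 63.9% in the NFR and 65.3% at +1. At like GC content, -1 still lay above +1 in most bins: 0.27 at -1 against 0.04 at +1 for 50% to 55% GC, and -0.27 against -0.42 for 65% to 70%. Below 35% the order turned round, 0.85 at -1 and 0.91 at +1. Where the -1 window of a promoter was poorer in GC than its +1 window by 10 percentage points or more, -1 was the more sensitive in 81.3%, by a median of 0.82. Where they were within 5 points, it was so in 55.7%, by a median of 0.13. Where -1 was richer by 10 points or more, it was so in 30.4%, and the median difference was -0.54. How much of the tilt across the TSS goes with GC content was not tested.

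**Figure D3:**
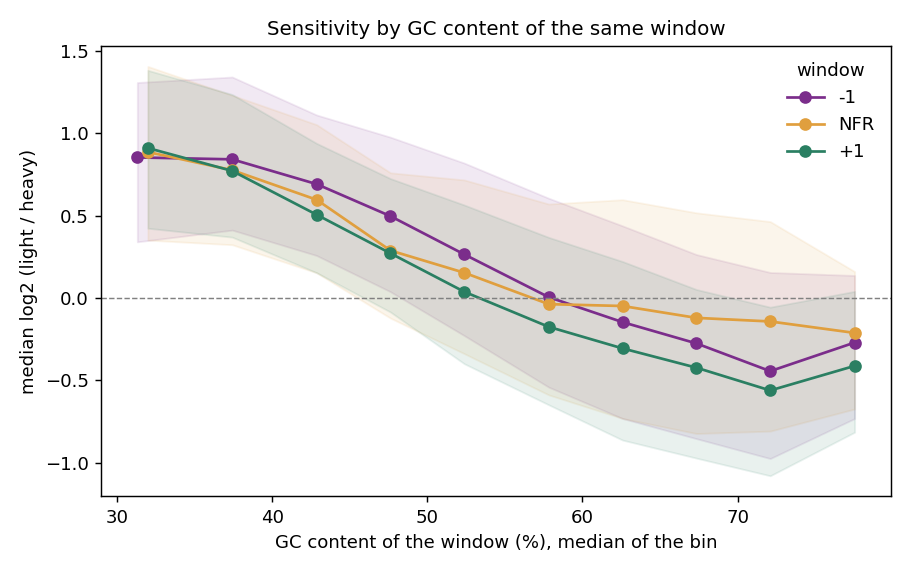
Median log2 ratio of light to heavy against the GC content of the same window in percent, for -1, the NFR and +1. Shading gives the quartiles over promoters. All medians are 0.85 or higher below 35% GC, and at 65% to 70% GC they are -0.27 at -1, -0.12 in the NFR and -0.42 at +1.

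CG dinucleotides gave a different picture from GC content. In the stretch from 250 bp upstream to 49 bp downstream, the promoters with fewest (median of 1) had a median -1 ratio of 0.58, those in the 3rd decile (median of 7) 0.01, those in the 5th decile (median of 18) 0.40, and those with most (median of 44) -0.24. Promoters with intermediate CG numbers were therefore more sensitive at -1 than their neighbors on the low side.

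The deepest nucleosome-free regions stood beside the most sensitive -1 nucleosomes, but the relation was weak and not steady, with a Spearman rho of -0.08 at -1. In the decile of promoters with the deepest NFR relative to -1 and +1, the median ratio was 0.41 at -1, 0.28 in the NFR and -0.06 at +1. The -1 median was lowest in the 7th decile, at 0.05, with 0.02 in the NFR and -0.30 at +1. In the 10th decile, where the NFR was the least depleted, the medians were 0.18 at -1, -0.09 in the NFR and -0.09 at +1. The depth of the NFR is computed from the same counts as the ratios.

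Core promoter motifs were searched on both strands of the 100 bp upstream of the TSS, and a match is a run of letters, not a proven site. TATAAA, the TATA box bound by TBP, was found in 4.53% of promoters, with a median -1 ratio of 0.30, against 0.16 without it. CCAAT, the box bound by NF-Y, was found in 19.6%, with a median of 0.30 at -1 and 0.25 in the NFR, against 0.13 and 0.05 without it. GGGCGG, the GC box of Sp1-like factors, was found in 40.4%, with a median of 0.05 at -1 against 0.25 without it. Median GC content from -250 to 49 bp was 48.3% with TATAAA and 62.3% without it, 60.7% with CCAAT and 62.3% without it, and 69.3% with GGGCGG and 56.3% without it. Its part in these differences was not tested.

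Divergent promoters were more sensitive in the center. In 13.4% of promoters a protein-coding gene started on the other strand within 1 kb upstream. Their median was 0.25 at -1, 0.32 in the NFR and -0.003 at +1, against 0.16, 0.06 and -0.23 in the other promoters. Their median GC content, over the same stretch as for the motifs and not in the single windows, was 65.0% against 61.3%. What part GC content has in the differences between divergent and other promoters was not tested.

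Promoters of broadly used genes were sensitive, and those of genes of other tissues resistant for their GC content. The gene lists were grouped by what their genes are known to do, not by RNA measured in these cells. Of the lists, 9 hold genes that nearly every dividing cell uses, with 538 promoters in all. At -1, 31.3% of these were over 2-fold higher in light and 3.25% lower, beside 17.2% and 9.45% of all promoters, and their median was 0.59 beside 0.17. At +1 their median was 0.09 beside -0.20. Relative to the median of all promoters in the same GC bin, they stood at 0.46 at -1, 0.46 in the NFR and 0.39 at +1. This comparison at like GC content was chosen after the values were seen.

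Each of the 9 lists had a median above that of all promoters at -1. Over all promoters, 17.2% were over 2-fold higher in light at -1 and 9.45% lower. RNA polymerase II subunits, initiation factors and Mediator had a median of 0.86, with 26 of 59 over 2-fold higher in light and 1 lower. Proteasome subunits followed with 0.74 (14 of 35 higher, 1 lower), splicing factors with 0.68 (13 of 42, 2 lower) and cytosolic ribosomal proteins with 0.63 (24 of 67, 2 lower). Mitochondrial ribosomal proteins had 0.58, chromatin remodelers 0.54, translation factors and tRNA synthetases 0.52, oxidative phosphorylation 0.48, and DNA replication and cell cycle genes 0.34. The NFRs of these lists were deep, with a median log2 ratio of the NFR to the mean of -1 and +1 of -1.82, against -0.97 over all promoters.

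Single members of these lists carried large light values at -1. MED20, a Mediator subunit, had 3.67 rpm in light and 0.586 rpm in heavy, from 83 and 7 fragments, a log2 ratio of 2.43 (95% counting interval 1.54 to 4.00). RPL35, of the large ribosomal subunit, had 32 light fragments and 1 heavy fragment, a ratio of 2.60 (1.49 to 9.42). That value rests on the window, since RPL35 stood at 0.20 when -1 was taken from -200 to 0 bp. EIF2S1, the alpha subunit of initiation factor eIF2, had 38 light and 3 heavy fragments, a ratio of 2.12 (1.08 to 5.08). MED20, RPL35 and EIF2S1 each start opposite another coding gene. At the other end of the ribosomal list, RPS21 had 28 light and 29 heavy fragments, a ratio of -0.93 (-1.78 to -0.18).

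B cell genes were sensitive on both sides of the TSS. The 51 promoters of receptors, kinases and transcription factors of B cells had a median of 0.64 at -1, 0.51 in the NFR and 0.30 at +1. At +1, 12 of 51 were over 2-fold higher in light and 2 lower, beside 7.59% and 16.3% of all promoters. At -1 the counts were 16 and 2 of 50, beside 17.2% and 9.45%. At like GC content the medians were 0.26 at -1, 0.29 in the NFR and 0.31 at +1.

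The ends of the B cell list differed in sign. VPREB3, a protein of early B lymphocytes, had 1.32 rpm in light and 0.274 rpm in heavy at -1, a ratio of 1.88 (0.81 to 4.84), and 0.69 when -1 was taken from -200 to 0 bp. TCL1A, a coactivator of Akt kinase, had 0.522 rpm in light and 1.59 rpm in heavy, a ratio of -1.42 (-2.76 to -0.47). Of factors that the study followed, SPI1 (PU.1) had a ratio of 0.28 at -1 (-0.81 to 1.67) and NFKB2, a subunit of NF-kB, -0.11 from only 6 light and 3 heavy fragments (-2.15 to 2.70). Neither can be told apart from 0 at this depth.

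Genes that respond to microbes were mixed before any stimulus. Interferon-stimulated genes had medians of 0.66 at -1 and 0.35 in the NFR, where 14 of 39 were over 2-fold higher in light and 0 lower, beside 14.3% and 11.1% of all promoters. NF-kB subunits and targets had 0.36 at -1 and 0.43 in the NFR, and 10 of 28 NFRs were over 2-fold higher and 1 lower. Toll-like receptor signaling genes had 0.08 at -1 and 0.28 in the NFR, with 12 of 29 NFRs over 2-fold higher and 2 lower. NFR windows hold few fragments. Beyond counting error, 3 interferon-stimulated, 5 NF-kB and 6 Toll-like receptor NFRs were higher in light, and 1, 1 and 0 lower. Over all promoters these shares were 4.23% higher and 8.16% lower. Immediate early genes, GC-rich at 68.3%, stood at 0.00 at -1, with 0 of 30 over 2-fold higher in light and 2 lower, beside 17.2% and 9.45% of all promoters at -1.

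Within these lists some promoters were strongly sensitive. TLR7, a sensor of single-stranded RNA, had 46 light and 5 heavy fragments at -1, a ratio of 2.08 (0.95 to 3.97). TNFRSF9, the costimulatory receptor 4-1BB, had a ratio of 1.49 at -1 and 2.19 in the NFR, which held 38 light and 4 heavy fragments. IFITM2, an antiviral membrane protein, had 45 fragments in each digest, a ratio of -0.87 (-1.55 to -0.30) because the heavy table is shallower.

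Genes of other blood lineages were less sensitive than B cell genes on the same scale. T and NK cell markers had medians of 0.34 at -1 and -0.10 at +1, and the -1 value turned to -0.13 at like GC content. Myeloid markers had 0.01 at -1, -0.22 in the NFR and -0.45 at +1, where 8 of 38 were over 2-fold lower in light and 1 higher, near the 16.3% and 7.59% of all promoters. The difference between these lists and the B cell list has no replicate check.

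Of the classes compared, genes of other tissues had the lowest median at +1. They were taken as silent by known function, not from RNA of these cells. The class held 549 promoters, with a median of 0.10 at -1 and -0.41 at +1. At +1, 23.2% were over 2-fold lower in light and 5.85% higher. At like GC content the class stood at -0.32 at -1, -0.29 in the NFR and -0.40 at +1. Its lists went both ways at +1 as measured, beside -0.20 for all promoters. Taste receptors (0.34), the epidermal differentiation complex (0.20), olfactory receptors (0.01) and HOX genes (-0.17) lay above that, and the other lists of the class below. Keratins had a median of 0.20 at -1 but -0.96 at +1, where 23 of 50 were over 2-fold lower in light and 1 higher, beside 16.3% and 7.59% of all promoters. Keratin-associated proteins of the hair matrix matched them, with 0.35 at -1, -0.96 at +1, and 20 of 40 lower and 0 higher at +1. At like GC content the -1 medians turned negative, -0.32 for keratins and -0.34 for keratin-associated proteins, while at +1 they stayed at -0.67 and -0.73. These families lie in gene clusters and hold near-identical copies whose shared reads were discarded, so their members are neither independent nor fully measured.

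Ion channels and neurotransmitter receptors were resistant at every window near the TSS, with medians of -0.46 at -1, -0.49 in the NFR and -0.71 at +1. Their GC content, 65.0%, was above the 62% of all promoters, and at like GC content they still stood at -0.48 at -1. HOX genes, the clustered factors of the body axis, had -0.43 at -1 but 0.15 in the NFR and -0.17 at +1. Erythroid, liver, muscle and neuron markers had -0.06 at -1, and 21 of 78 were over 2-fold lower in light at +1, with 1 higher, beside 16.3% and 7.59% of all promoters.

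Olfactory receptors had the highest -1 median among the lists of genes of other tissues. It was 0.84, with 36 of 96 over 2-fold higher in light and 1 lower, beside 17.2% and 9.45% of all promoters. They are the poorest in GC, at 36.3%, and at like GC content their median was 0.06 at -1 and -0.29 at +1. Histone genes had a median of 0.68 at -1, with 23 of 59 over 2-fold higher in light and 0 lower, read against the same shares, and 0.03 at like GC content. The 372 zinc finger factors stood at 0.39 at -1 and -0.21 at +1. The epidermal differentiation complex, genes of the skin barrier, had medians of -0.21 at -1 and 0.20 at +1, and at like GC content of -0.56 at -1 and -0.14 at +1.

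**Figure D4:**
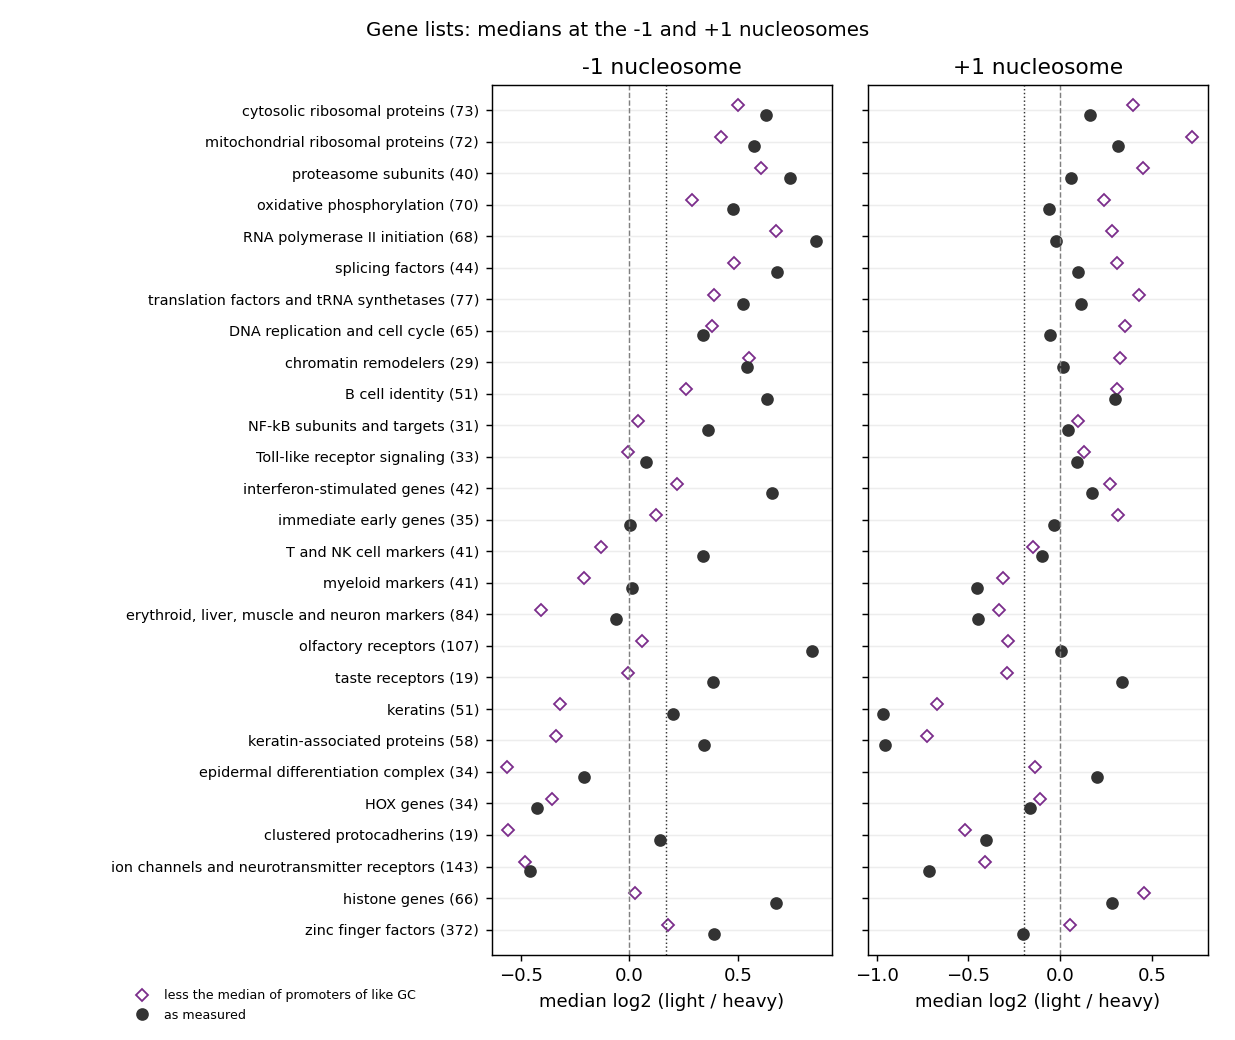
Median log2 ratio of light to heavy of each gene list at -1 and +1. Filled circles are the values as measured, open diamonds the values less the median of all promoters of like GC content, the dotted line the median of all promoters, and numbers in brackets the promoters per list. Lists of broadly used genes lie right of 0 on both scales at -1, and keratins and keratin-associated proteins lie at -0.96 as measured at +1.

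Average profiles of the classes showed where they parted. At the NFR minimum of -80 bp, broadly used genes held 0.351 rpm in light and 0.202 rpm in heavy, a log2 ratio of 0.80. Genes of other tissues held 0.960 rpm in light and 1.03 rpm in heavy there, a ratio of -0.11, with little depletion. At 360 bp, the +2 position, broadly used genes were even between digests (0.02), while genes of other tissues stood at -0.58.

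At the sensitive end of the -1 ranking, heavy fragments were nearly absent. FAM120AOS had 44 light fragments and 0 heavy fragments, 1.79 rpm in light and 0 rpm in heavy. Taking 3 fragments as the floor of the heavy window, light was at least 7.72-fold higher. SAMD9, an antiviral factor, had 30 light and 0 heavy fragments, at least 5.26-fold higher in light. When -1 was taken from -200 to 0 bp, the log2 ratios were 1.41 for FAM120AOS and 1.31 for SAMD9. U2SURP, a protein of the U2 spliceosome particle, had 3.41 rpm in light and 0.321 rpm in heavy, a ratio of 3.0 (1.93 to 5.25).

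FDPS, the farnesyl diphosphate synthase of isoprenoid and cholesterol synthesis, had 44 light and 2 heavy fragments, a ratio of 2.95 (1.6 to 6.62). CDIPT, the phosphatidylinositol synthase, had 72 light and 4 heavy fragments, a ratio of 2.74 (1.83 to 5.16). BLOC1S4, a subunit of a complex that forms lysosome-related organelles, had 57 light and 3 heavy fragments, a ratio of 2.75 (1.70 to 5.64).

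A divergent pair stood at the sensitive end of the rankings on both sides of the TSS. NDUFA2, a subunit of respiratory complex I, starts at chr5 position 140027370 on the minus strand and IK, a splicing-associated factor, at 140027384 on the plus strand, so the -1 window of NDUFA2 and the +1 window of IK overlap. NDUFA2 had 1.77 rpm in light and 0.049 rpm in heavy at -1, less than 1 heavy fragment. IK had 1.76 rpm in light and 0.070 rpm in heavy at +1, a ratio of 3.32 (1.84 to 9.74), the highest among promoters with at least 29 fragments there. These are readings of partly the same DNA, not separate events.

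At the resistant end the fragments were numerous in the heavy digest. ZFR2 had 0.542 rpm in light and 3.52 rpm in heavy at -1, from 13 and 45 fragments, a ratio of -2.46 (-3.73 to -1.80). FAM184B had 0.454 rpm in light and 2.54 rpm in heavy, a ratio of -2.21 (-3.73 to -1.32). SRPRB, a subunit of the receptor that docks ribosomes at the endoplasmic reticulum, had 8 light and 24 heavy fragments, a ratio of -2.19 (-3.88 to -1.31).

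**Figure D5:**
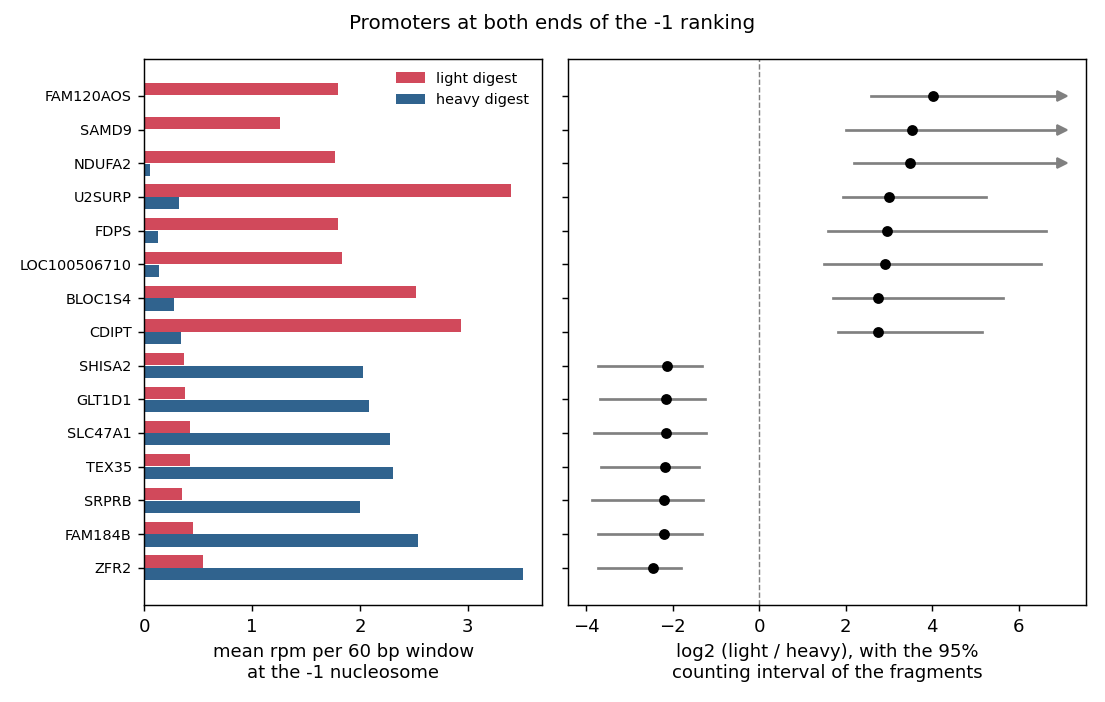
The 8 promoters with the highest and 7 of the 8 with the lowest log2 ratio at -1, among those with at least 30 fragments there. Bars give mean rpm per 60 bp window in the light and heavy digests, and points the log2 ratio with its exact 95% counting interval, with an arrow where no upper limit exists. Every interval stays on its side of 0, which the choice of the ends favors.

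The ends of the +1 ranking held different genes. LIN52, a subunit of the DREAM complex that represses cell cycle genes, had 72 light and 3 heavy fragments at +1, a ratio of 3.05 (2.05 to 5.97). INHBA-AS1 had 32 light fragments and 1 heavy fragment, a ratio of 3.06 (1.49 to 9.42). The most resistant were AQPEP with -2.59, ZNF385D with -2.55, FOXI1 with -2.51 and C19orf33 with -2.50. FOXI1, a forkhead factor of ion-transporting epithelia, had 6 light and 24 heavy fragments.

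In the NFR, 1 of the digests was nearly empty at each end of the ranking. MLH3, a mismatch repair factor, had 40 light and 0 heavy fragments in the NFR, at least 7.02-fold higher in light. TTC8, a subunit of the cilium-related BBSome, had 33 light and 0 heavy fragments, at least 5.79-fold higher. C1QB, a chain of complement C1q, had 1 light and 12 heavy fragments, a ratio of -3.10 (-9.93 to -1.75). Over all promoters the NFR window held a median of 6 light and 3 heavy fragments.

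The same promoters were read in separate libraries after 40 and 60 min of HKST, in tables that share no sample with the untreated ones. All 8 promoters at the sensitive end of -1 kept a positive ratio, from 0.39 to 3.73 after 40 min and from 1.18 to 2.62 after 60 min. All 8 at the resistant end kept a negative one, from -1.92 to -1.05 after 40 min and from -2.13 to -0.46 after 60 min. Of all promoters, 45.8% were above 0 at +1 after 40 min and 41.9% after 60 min. In the NFR the shares were 58.7% and 56.9%. The 4 highest and 4 lowest promoters at +1 and in the NFR also kept their sign at both times. Their values mostly lay nearer 0 than in untreated cells, the data that chose them: the 8 highest at -1 had medians of 2.97 without stimulus, 0.93 after 40 min and 2.02 after 60 min.

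Over all promoters the -1 ratios of untreated cells went with those at 40 min with a Spearman rho of 0.58 (14545 promoters) and at 60 min with 0.67 (14587 promoters). Of the promoters over 2-fold higher in light at -1 in untreated cells, 90.5% were above 0 at 40 min and 93.6% at 60 min, against 61.5% and 60.0% of all promoters. For those over 2-fold lower, 82.9% and 89.4% were below 0. At +1 the rho was 0.52 at 40 min and 0.60 at 60 min, and over the whole 2 kb 0.85 and 0.88. These points share the cell line, the assay and the base composition of each promoter.

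Promoters close together on a chromosome were alike. Adjacent promoters 2 to 20 kb apart had a Spearman rho of 0.43 between their 2 kb ratios (2620 pairs), against 0.03 for those over 1 Mb apart. The GC content of the same pairs had a rho of 0.50 and 0.10. Among chromosomes, the median ratio over the 2 kb ran from -0.13 on X to 0.19 on chromosome 6. Chromosome X held 1.06% of the promoters, and it stood at -0.04 at -1, -0.37 in the NFR and -0.53 at +1. At like GC content X remained low, at -0.34, -0.46 and -0.34, the lowest of the 23 chromosomes at each of the 3 windows. How many X promoters were lost where the heavy table breaks off was not counted, so these values describe only the part of X that was kept.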

How the data were processed

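Nucleosome fragments of untreated GM12878 cells were analyzed from the tables that the authors deposited, 1 per digest, each pooling both replicates. Per the sources used here, paired reads were aligned to hg19 with Bowtie2 (version 2.2.2 in the submitters' processing notes), reads without a unique place were discarded, and centers of 140 to 200 bp fragments were counted in 60 bp windows every 10 bp and scaled to rpm, the unit of the deposited values. Because non-unique reads were discarded, repeated sequence and near-identical gene copies are undercounted. The last line of the heavy table was partial and was dropped, and 10.5% of bins held no value. All values were whole multiples of 0.5 of what 1 fragment is worth (within 0.05 of a step, a fragment at the edge of a window counting 0.5), which gave the depth of each table and the fragments behind each window (rounded). EBF1, a factor that the study followed, had no complete line in both tables and was not analyzed here. Single promoters at the ends of the rankings are in part not reported here.

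Windows reached 70 bp to each side of a peak of the average profile smoothed over 3 bins, and 50 bp to each side of the lowest position, with at least 50% of bins present. Promoters with 0 fragments in both digests had no ratio: 978 at -1, 2304 in the NFR and 1599 at +1. Intervals are exact conditional (Clopper-Pearson) 95% intervals of the ratio of fragments. With 1 table per digest no test was made. Sequence was read from GRCh37, the build of the files, and starts were compared with GENCODE. GC content was taken over the nucleosome-sized stretch around each window's center. Like GC content means the same bin, 5 percentage points wide from 35% to 75%, with a single wider bin below 35% and another at 75% and above. Named promoters were the 8 highest and 8 lowest at -1 and the 4 highest and 4 lowest at +1 and in the NFR, with at least the median number of fragments there and 1 promoter per gene, the highest and lowest of each of 27 gene lists at -1, and factors that the study followed. The promoters and lists were chosen with earlier results of these data known. Alternatives were another pseudocount, rescaling, thinning to equal depth, a minimum of 10 fragments, other windows, 1 promoter per gene, and means or summed values. The interval code was tested on simulated data. Python 3.11.15, numpy 2.4.6, scipy 1.17.1 and matplotlib 3.10.9 were used. The tables at 20 min were not used here.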

Additional observations from a re-analysis of the deposited data

How the results depend on the processing

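Medians at -1 stayed positive and medians at +1 negative under every alternative run, whereas the NFR median changed sign. The NFR median was -0.0090 with 10 or more fragments in the window and -0.10 as the ratio of summed values, and the cause was not tested. Adding 0.5 of the mean value pulled all ratios toward 0, by construction: medians were 0.088 at -1, 0.032 in the NFR and -0.10 at +1, and promoters over 2-fold higher and lower in light numbered 626 and 391 at -1, 254 and 394 in the NFR, and 244 and 660 at +1. Rescaling heavy to a median 2 kb ratio of 0, which lowers every value, gave 0.12 at -1, 0.052 in the NFR and -0.25 at +1. Thinning light to the depth of heavy gave 0.14, 0.019 and -0.22. With 10 or more fragments the medians were 0.19 at -1 and -0.16 at +1, and 936 NFRs were over 2-fold higher and 928 lower. The -1 median was 0.099 in the window from -200 to 0 bp and 0.10 as the ratio of summed values; the causes were not tested. Counts over all windows stayed within 1.5 times in 70 of 86 cases.

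Of the -1 ratios of single promoters whose counting interval excluded 0, MRPL14 alone changed sign, at 0.048 in the window from -200 to 0 bp. Relative to promoters of like GC content, an alternative chosen after seeing the data, the -1 medians of 7 lists turned negative: T and NK cell markers -0.13, taste receptors -0.0061, keratin-associated proteins -0.34, keratins -0.32, clustered protocadherins -0.56, myeloid markers -0.21 and Toll-like receptor signaling -0.0080. Under the other alternatives 3 lists changed sign: keratins at -0.016 in the window from -200 to 0 bp, immediate early genes at -0.033 with heavy rescaled, and myeloid markers, 0.012 as reported, at -0.20 to -0.019 under 4 alternatives. No paired analysis was possible because each table pools both replicates, and for the same reason no replicate could be left out. Depth limits single windows: at the median fragment numbers of the NFR the 95% interval ran from -2.15 to 2.70.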
